A study of Mus musculus with 8 samples.

Results

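The p53 target genes were 10 rows of the count table, found by symbol: Trp53, which encodes p53 itself, and Mdm2, Ccng1, Phlda3, Zmat3, Eda2r, Sesn1, Bax, Bbc3 and Trp53inp1. They were 10 of 50578 genes listed, and all 10 passed the filter on low counts that left 15154 genes for the test. The libraries came from mouse embryonic fibroblasts (MEFs), primary connective tissue cells of C57BL/6J embryos without a genetic change (WT), used at passages 3 to 5. There were 4 groups of 2 libraries, 8 in all: untreated MEFs, and MEFs that had received 10 µM of 1 compound, which was carbidopa, CHIR-99021 or LY-364947. LY-364947 is spelled LY-364747 in the sample labels. Carbidopa blocks aromatic amino acid decarboxylase. CHIR-99021 blocks GSK3, a kinase of the Wnt pathway, and LY-364947 blocks signaling through the receptor of TGF-beta. The study asked whether such compounds move fibroblasts toward a hepatic progenitor state, and the labels call the treated cells hepatic-like. The length of treatment before RNA-seq was not given in the sources used here, nor was it stated whether the libraries of a group came from separate embryos or cultures. The p-values therefore measure the spread between these libraries, which may be technical.

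p53 is a transcription factor that is mostly controlled through the stability of its protein. MDM2 marks p53 for destruction and is itself a p53 target, so the pair forms a feedback loop. When DNA damage or other stress stabilizes p53, it raises genes of cell cycle arrest, cell death, DNA repair and metabolism. Fibroblasts in culture keep a basal p53 activity, and MEFs are a classic system for its study. The mRNA of Trp53 therefore need not follow the activity of the protein, which was not measured here.

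Levels are given as CPM (counts scaled to a common library size) after TMM normalization, which scales each library by its depth and composition. A gene was called higher or lower at a Benjamini-Hochberg adjusted p under 0.05 over all genes tested, from edgeR's quasi-likelihood test of all libraries in one fit. The libraries held 15039566 to 20504338 counts, and no pair of replicates agreed within sampling noise. The chi-square of counts between replicates per degree of freedom was 36.4 for carbidopa, 4.35 for MEF, 7.60 for LY-364947 and 9.38 for CHIR-99021. Carbidopa replicate 1 stood apart from replicate 2 in genes rich in G and C, as described with Bax. Other genes were lower in carbidopa replicate 1 than in replicate 2, such as Vim (570 and 888 CPM) and Hipk2 (33.0 and 93.4 CPM). How much of the carbidopa spread went with GC content was not tested. Markers of the labelled fibroblasts were abundant in all libraries: the 8 genes summed to 15577 and 15768 CPM in MEFs and to 5870 to 8065 CPM in treated cells. The 8 hepatocyte markers summed to 0.149 and 0.323 CPM in MEFs and to 0.638 to 1.18 CPM in treated cells, with Serpina1a and Tat at 0 reads throughout (a count of 0 allows up to 3). In bulk libraries, fewer cells of a type and less RNA per cell cannot be told apart.

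Compared per kilobase of exon, the members spanned a wide range of levels in MEFs. Ccng1, which encodes cyclin G1, stood at 831 ± 68.0 CPM per kb (SD, n = 2 here and below). Trp53inp1 followed at 100 ± 11.9 and Mdm2 at 72.2 ± 1.68 CPM per kb. Phlda3 (38 ± 3.58), Zmat3 (37.9 ± 1.88) and Bax (36.6 ± 2.55) did not differ beyond their spread. Eda2r at 32.4 ± 1.93 and Trp53 at 23.1 ± 0.767 CPM per kb came next, and Sesn1 at 5.11 ± 0.788 and Bbc3 at 2.71 ± 0.226 CPM per kb were the lowest.

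**Figure D1:**
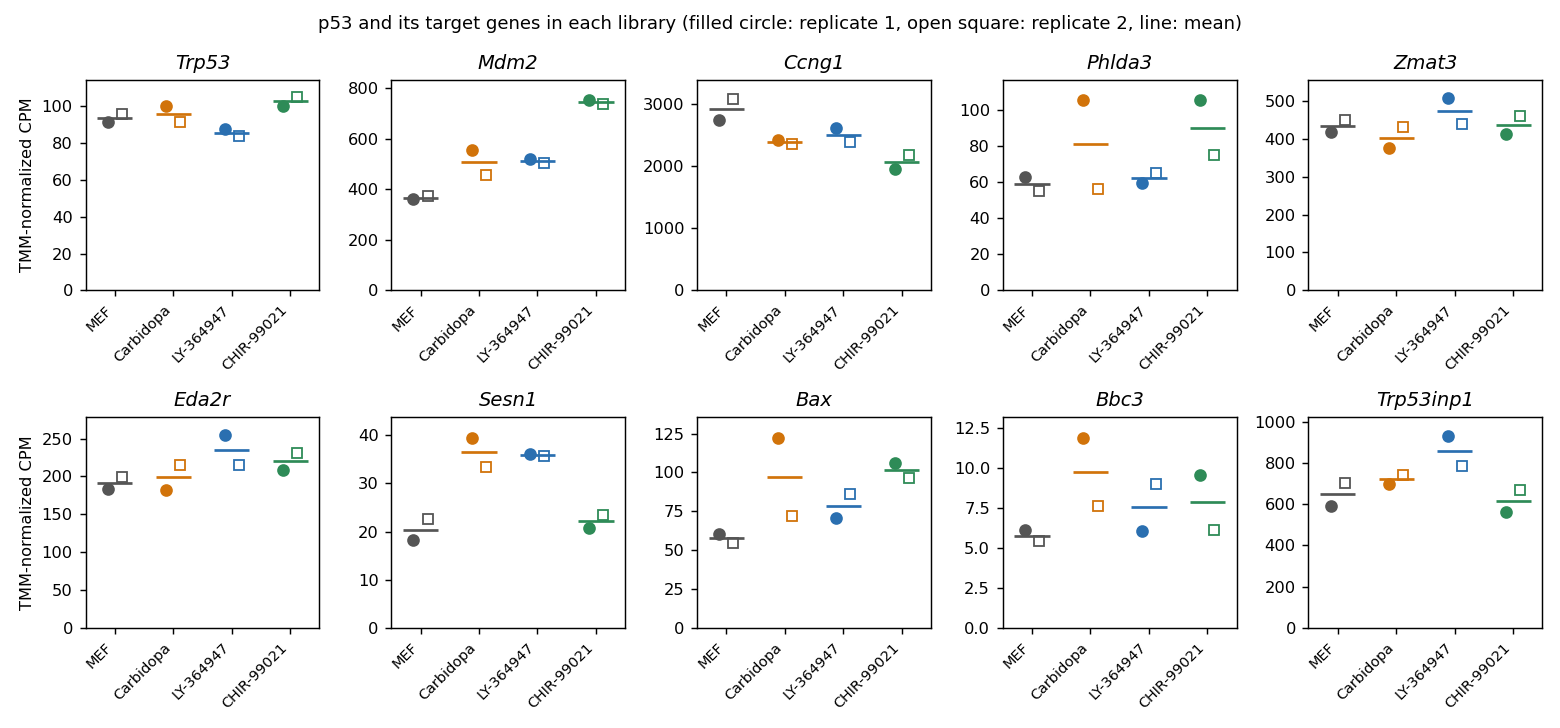
TMM-normalized CPM (vertical axes, from 0) of the 10 members in the 8 libraries, 1 panel a gene, with replicate 1 as a filled circle, replicate 2 as an open square and the group mean as a line. All 6 treated libraries lay above both MEF libraries for Mdm2, and the carbidopa pair lay far apart for Phlda3, Bax and Bbc3.

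Trp53 (ENSMUSG00000059552, chromosome 11 of mm10, 69580359 to 69591873) was not called in any treatment. It had 91.2 and 95.6 CPM without a compound, 99.9 and 91.7 after carbidopa, 87.5 and 83.9 after LY-364947 and 100.4 and 105 after CHIR-99021. The CHIR-99021 libraries lay just above and the LY-364947 libraries just below both MEF libraries, while the carbidopa pair overlapped the MEF pair. The log2 fold change against MEF was 0.04 after carbidopa (95% confidence interval -0.18 to 0.25), -0.12 after LY-364947 (-0.34 to 0.09) and 0.14 after CHIR-99021 (-0.08 to 0.35). None passed the test (edgeR adjusted p = 0.788, 0.377 and 0.294).

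Mdm2 (ENSMUSG00000020184, chromosome 10, 117688875 to 117710758), the main negative regulator of p53, was higher with each compound. It had 361 and 373 CPM without a compound, 556 and 455 after carbidopa, 518 and 503 after LY-364947 and 751 and 738 after CHIR-99021. No treated library overlapped the MEF libraries, and both CHIR-99021 libraries lay above all other libraries. Against MEF, Mdm2 was 1.38-fold higher with carbidopa (log2 fold change 0.46, standard error 0.11, edgeR adjusted p = 0.00837), 1.39-fold with LY-364947 (0.48, 0.11, 0.00778) and 2.03-fold with CHIR-99021 (1.02, 0.11, 5.11e-05). CHIR-99021 exceeded carbidopa 1.47-fold (log2 0.56, standard error 0.11, edgeR adjusted p = 0.00801) and LY-364947 1.46-fold (0.54, 0.11, 0.00937). LY-364947 and carbidopa differed by 0.01 on the log2 scale (95% confidence interval -0.23 to 0.26, edgeR adjusted p = 0.966).

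The Mdm2 call against MEF held without any 1 library for CHIR-99021. For carbidopa it was lost without MEF replicate 1 (log2 0.44, edgeR adjusted p = 0.0794) or MEF replicate 2 (0.48, 0.0605), and without carbidopa replicate 1 it held at a log2 value of 0.31 (0.00697). For LY-364947 it was lost without MEF replicate 1 (edgeR adjusted p = 0.0805), MEF replicate 2 (0.0583) or LY-364947 replicate 1 (0.0564). The difference of CHIR-99021 from carbidopa was lost without CHIR-99021 replicate 1 (0.0700) and with those groups alone in the fit (0.0637). The difference from LY-364947 was lost without CHIR-99021 replicate 1 (0.0814), LY-364947 replicate 1 (0.0827) or LY-364947 replicate 2 (0.0756).

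**Figure D2:**
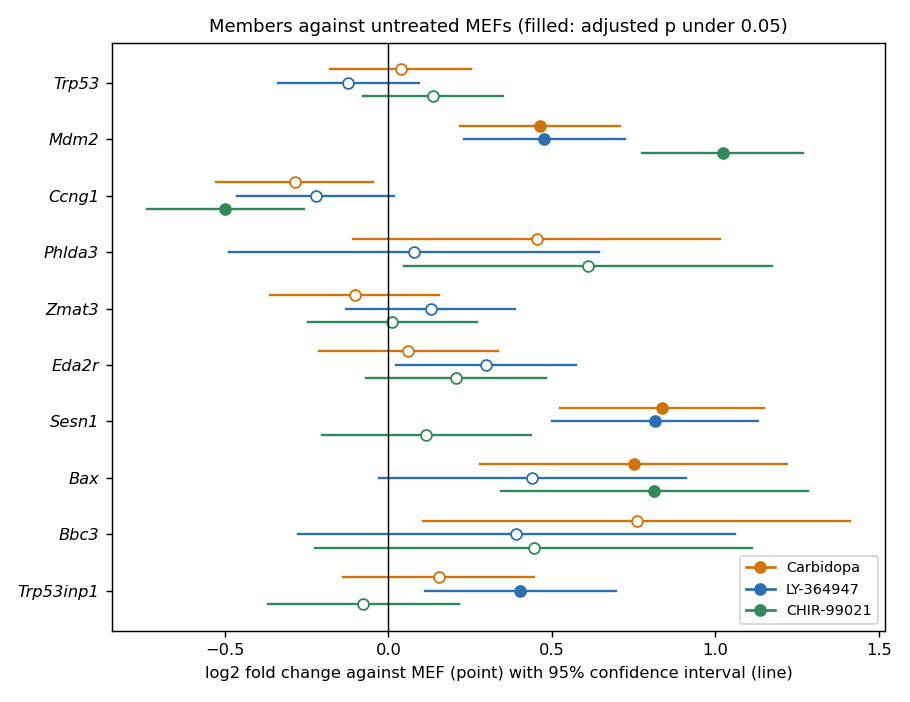
Log2 fold change of each member against untreated MEFs (horizontal axis) with its 95% confidence interval, by compound, where a filled point marks an adjusted p under 0.05. Mdm2 is the member with 3 filled points, from 0.46 with carbidopa to 1.02 with CHIR-99021, and Ccng1 is the member with a filled point below 0.

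Over the members, 3 were called higher with carbidopa (Mdm2, Sesn1 and Bax) and none lower. Of all genes tested, 18% were higher and 19.7% lower in that comparison. With LY-364947, 3 members were higher (Mdm2, Sesn1 and Trp53inp1) and none lower, against 13.7% higher and 17.2% lower of all genes. With CHIR-99021, Mdm2 and Bax were higher and Ccng1 lower, against 18.7% and 20.1% of all genes. The count with carbidopa was 1 without MEF replicate 1 or 2, fits that called 21.3% and 19.9% of all genes in either direction, and 6 without carbidopa replicate 2, where 50.5% of all genes were called (37.7% as reported). The count with LY-364947 was 1 without MEF replicate 1 or 2 or LY-364947 replicate 1, 2 without LY-364947 replicate 2 and 6 without either carbidopa library. Of all genes, 18% to 19.7% were called in the first fits, 18.8% in the next and 41.2% and 41% in the last (31% as reported). The count with CHIR-99021 was 1 without MEF replicate 2 or CHIR-99021 replicate 1, where 21.9% and 21.7% of all genes were called (38.8% as reported). Compared with the reported fits, those named here called fewer members where they called fewer of all genes, and more where they called more. Among the LY-364947 fits themselves that order did not hold throughout. The cause of these shifts was not tested. The median log2 fold change of the 10 members was 0.30, 0.35 and 0.17 for carbidopa, LY-364947 and CHIR-99021, beside 0.04, 0.03 and 0.04 over all genes tested. The 3 comparisons share the MEF libraries. The members were chosen with earlier results of these data known, so their counts and medians cannot test for an excess over all genes.

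Ccng1 (ENSMUSG00000020326, chromosome 11, 40748552 to 40755311), the most abundant member and a p53 target whose cyclin recruits a phosphatase to MDM2, moved opposite to Mdm2 with CHIR-99021. It had 2751 and 3089 CPM without a compound, 2419 and 2369 after carbidopa, 2613 and 2393 after LY-364947 and 1951 and 2183 after CHIR-99021. All 6 treated libraries lay below both MEF libraries, and the CHIR-99021 libraries were the lowest. With CHIR-99021 the log2 fold change was -0.50 (standard error 0.11, edgeR adjusted p = 0.00456). The call was lost without MEF replicate 2 (-0.42, 0.0656) or CHIR-99021 replicate 1 (-0.42, 0.0525). The values of -0.29 with carbidopa and -0.22 with LY-364947 did not pass (edgeR adjusted p = 0.0591 and 0.149). The value with carbidopa passed with DESeq2 (0.0275), with RLE size factors (0.0441) and without a filter (0.0452), and that with LY-364947 with only the compared groups in the fit (0.0246). Both passed without carbidopa replicate 1 (0.0363 and 0.0429) or 2 (0.0393 and 0.0434). Under the GC correction described with Bax, the value with carbidopa was -0.14 (0.280), and the value with LY-364947 was -0.14 (0.583) without MEF replicate 2.

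In the same CHIR-99021 libraries, 10 of 10 proliferation markers such as Mki67 and Top2a were lower than in MEFs, with a summed level of 56.3 and 61.9 CPM against 204 and 209 CPM. With carbidopa 6 of the 10 were lower (132 and 146 CPM) and with LY-364947 2 of 10 (178 and 159 CPM). Of all genes, 20.1% were lower with CHIR-99021, 19.7% with carbidopa and 17.2% with LY-364947, so the LY-364947 count was near that share. The part of the proliferation markers in the values of Ccng1 and Mdm2 was not tested. All 12 macrophage markers also fell with CHIR-99021, from 1136 and 1178 CPM in MEFs to 85.4 and 93.4 CPM. With carbidopa and LY-364947, 11 of the 12 fell, to 351 to 375 and 263 to 267 CPM. No marker of that list was at 0 in the MEF libraries, and the share of each member's reads that came from such cells was not tested.

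Sesn1 (ENSMUSG00000038332, chromosome 10, 41809935 to 41908424), whose product sestrin 1 restrains mTORC1 signaling and oxidative stress, separated CHIR-99021 from the other compounds. It had 18.1 and 22.6 CPM in MEFs and 20.8 and 23.4 with CHIR-99021, but 39.5 and 33.4 with carbidopa and 36 and 35.8 with LY-364947. The CHIR-99021 pair overlapped the MEF pair, and the other treated libraries lay above both. Sesn1 was 1.79-fold higher than in MEFs with carbidopa (log2 0.84, standard error 0.14, edgeR adjusted p = 0.00110) and 1.76-fold with LY-364947 (0.82, 0.14, 0.00140). Both calls held without any 1 library. The annotation places RP23-205H11.3 over Sesn1 on the same strand. With CHIR-99021 the log2 value was 0.12 (95% confidence interval -0.20 to 0.44, edgeR adjusted p = 0.561).

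CHIR-99021 was lower in Sesn1 than carbidopa by 1.65-fold (log2 -0.72, standard error 0.14, edgeR adjusted p = 0.00713) and than LY-364947 by 1.62-fold (-0.70, 0.14, 0.00874). The first difference was lost without CHIR-99021 replicate 1 (0.0938). The second was lost without CHIR-99021 replicate 1 (0.112), LY-364947 replicate 1 (0.0697) or LY-364947 replicate 2 (0.0565).

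Trp53inp1 (ENSMUSG00000028211, chromosome 4, 11156431 to 11174379) encodes a stress protein that promotes cell death and autophagy. It had 594 and 702 CPM without a compound, 700 and 742 after carbidopa, 929 and 784 after LY-364947 and 560 and 669 after CHIR-99021. Both LY-364947 libraries lay above all other libraries, and the CHIR-99021 and MEF pairs overlapped. The log2 fold change of 0.40 with LY-364947 passed narrowly (standard error 0.13, edgeR adjusted p = 0.0405). It did not pass under RLE size factors (0.0548), nor without MEF replicate 1 (0.28, 0.295), MEF replicate 2 (0.53, 0.0681), LY-364947 replicate 1 (0.28, 0.285) or LY-364947 replicate 2 (0.52, 0.0503). CHIR-99021 was lower than LY-364947 by 1.39-fold (log2 -0.48, standard error 0.13, edgeR adjusted p = 0.0356). That difference was lost without any 1 library of the MEF, LY-364947 or CHIR-99021 groups (0.0534 to 0.304) and under the GC correction described next (0.0590). With that correction the value with carbidopa, 0.15 as reported (0.380), was 0.30 (0.0387).

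Bax and Bbc3 encode cell death proteins of the BCL2 family, BBC3 also being known as PUMA, and Phlda3 encodes an inhibitor of AKT signaling. Bax (ENSMUSG00000003873, chromosome 7, 45461697 to 45466898) had 60.5 and 54.8 CPM without a compound, 122 and 71.7 after carbidopa, 70.4 and 86.1 after LY-364947 and 106 and 96.4 after CHIR-99021. All treated libraries lay above both MEF libraries. Bax was 1.68-fold higher with carbidopa (log2 0.75, standard error 0.21, edgeR adjusted p = 0.0187) and 1.76-fold with CHIR-99021 (0.81, 0.21, 0.0120). With LY-364947 the log2 value was 0.44 (0.21, 0.146).

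Bax with carbidopa rested largely on 1 library. Without carbidopa replicate 1 the log2 value was 0.32 (edgeR adjusted p = 0.0758), and the call was also lost without MEF replicate 1 (0.0720) or MEF replicate 2 (0.125). The call with CHIR-99021 was lost without MEF replicate 1 (0.0507), MEF replicate 2 (0.0932) or CHIR-99021 replicate 1 (0.0788). With LY-364947, Bax was called without a filter (0.00570), with only the compared groups in the fit (0.00140) and without carbidopa replicate 1 (0.00547) or 2 (0.00572), and its log2 value was 0.29 without LY-364947 replicate 2.

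Phlda3 (ENSMUSG00000041801, chromosome 1, 135766119 to 135769136) had 63.1 and 55.2 CPM without a compound, 106 and 56.4 after carbidopa, 59.7 and 65.2 after LY-364947 and 106 and 75 after CHIR-99021. Bbc3 (ENSMUSG00000002083, chromosome 7, 16308393 to 16318205) had 6.10 and 5.42 CPM without a compound, 11.9 and 7.60 after carbidopa, 6.06 and 9 after LY-364947 and 9.56 and 6.09 after CHIR-99021. For Phlda3, carbidopa replicate 2 and LY-364947 replicate 1 lay within the MEF range and both CHIR-99021 libraries above it. For Bbc3, 1 library each of LY-364947 and CHIR-99021 lay within the MEF range and both carbidopa libraries above it. None of these differences from MEF passed the test. The nearest were Bbc3 with carbidopa (log2 0.76, standard error 0.29, edgeR adjusted p = 0.0655) and Phlda3 with CHIR-99021 (0.61, 0.25, 0.0818). The first was called without a filter (0.00147) and without carbidopa replicate 2 (1.05, 0.00871), and was 0.40 (0.329) without carbidopa replicate 1. Phlda3 with carbidopa (0.45, 0.183) was also called without a filter (0.00236) and without carbidopa replicate 2 (0.84, 0.00139), but turned to -0.07 (0.803) without carbidopa replicate 1. Phlda3 with CHIR-99021 was called with DESeq2 (0.0324), without a filter (2.18e-05), with only the compared groups in the fit (0.00583) and without carbidopa replicate 1 (0.00328) or 2 (0.00347), and was 0.35 without CHIR-99021 replicate 1.

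These members have the transcripts richest in G and C: 59.0% for Bax, 60.2% for Phlda3 and 67.1% for Bbc3, against 39.4% to 54.0% for the other members. In carbidopa replicate 1 they were 1.70, 1.87 and 1.56 times as high as in replicate 2, while the other members were 0.846 to 1.22 times as high. The same lean ran through all genes: in the fifth of tested genes with the most G and C, the median log2 CPM of carbidopa replicate 1 exceeded that of replicate 2 by 0.22, and in the fifth with the least it was lower by -0.14. Between the MEF replicates these medians were 0.05 and -0.06, between the CHIR-99021 replicates 0.17 and -0.11, and between the LY-364947 replicates -0.12 and 0.13. Against MEF, the median log2 fold change of the fifth with the most G and C was 0.22 after carbidopa, 0.10 after LY-364947 and 0.30 after CHIR-99021.

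A correction of each library for its trend with GC content, added after this was seen, lowered Bax to 0.52 with carbidopa (edgeR adjusted p = 0.0214) and 0.50 with CHIR-99021 (0.0247), and both calls held. It lowered Phlda3 to 0.20 with carbidopa and 0.25 with CHIR-99021, and Bbc3 to 0.35 and -0.15, none of them called. The calls of Mdm2 and Sesn1 held under this correction in all 3 comparisons with MEF where they had been made, as did that of Ccng1 (-0.34, 0.0219).

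**Figure D3:**
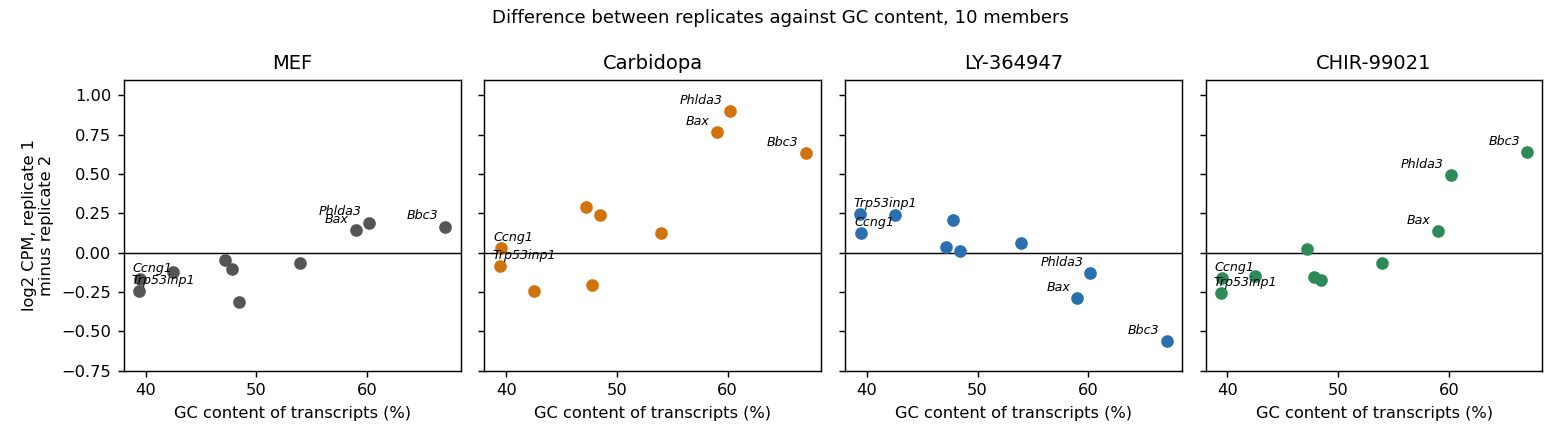
Log2 CPM of replicate 1 minus replicate 2 (vertical axis) against the GC content of the transcripts in percent (horizontal axis), 1 point a member and 1 panel a group. Phlda3, Bax and Bbc3 sit at 0.63 to 0.90 in the carbidopa panel and below 0 in the LY-364947 panel.

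Zmat3 and Eda2r were not called in any treatment. Zmat3 (ENSMUSG00000027663, chromosome 3, 32334792 to 32366014), which encodes an RNA-binding zinc finger protein, had 418 and 449 CPM without a compound, 375 and 432 after carbidopa, 508 and 440 after LY-364947 and 414 and 460 after CHIR-99021. Each treated pair overlapped the MEF pair, and the log2 values of -0.10, 0.13 and 0.01 did not pass (edgeR adjusted p = 0.509, 0.445 and 0.945). Eda2r (ENSMUSG00000034457, chromosome X, 97333840 to 97377216), a receptor of the TNF receptor family for ectodysplasin A2, had 183 and 199 CPM without a compound, 183 and 216 after carbidopa, 254 and 215 after LY-364947 and 209 and 232 after CHIR-99021. The LY-364947 and CHIR-99021 libraries lay above both MEF libraries. Their log2 values of 0.30 and 0.21 did not pass (edgeR adjusted p = 0.0955 and 0.214), but did under the GC correction (0.32, 0.0220 and 0.33, 0.0179). With LY-364947, Eda2r was also called with only the compared groups in the fit (0.00705) and without carbidopa replicate 1 (0.0198) or 2 (0.0204), and was 0.18 (0.495) without LY-364947 replicate 1.

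Between compounds, 1 member was higher (Mdm2) and 1 lower (Sesn1) with CHIR-99021 than with carbidopa, where 6.62% of all genes were higher and 8.08% lower. Without CHIR-99021 replicate 1 neither was called, and 4.51% of all genes were in either direction (14.7% as reported). Without carbidopa replicate 1, where 18.2% of all genes were called, Phlda3 and Bax were also higher (0.68 and 0.50, edgeR adjusted p = 0.0174 and 0.0173). Against LY-364947, Mdm2 was higher and Sesn1 and Trp53inp1 were lower with CHIR-99021, beside 6.45% and 7.69% of all genes. The count of 3 was 0 without CHIR-99021 replicate 1 or either LY-364947 library, fits that called 4.18% to 6.5% of all genes in either direction (14.1% as reported). It was 7 without either carbidopa library or with those groups alone in the fit, which called 25.4% to 26.7% of all genes. Trp53 was among the genes gained in that fit (0.25, 0.0428). Between LY-364947 and carbidopa no member was called by edgeR (0.0132% of all genes were) or by DESeq2 (0.106%), and 0 of 10 had an unadjusted p under 0.05 in edgeR, against 9.02% of all genes. Without carbidopa replicate 2, 24.1% of all genes were called between them, and 4 members: Zmat3 and Eda2r higher with LY-364947, and Phlda3 and Bax lower.

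The members did not move as one group over the 8 libraries. Of the 45 pairs, 23 had a positive Pearson correlation of log2 CPM, with a median of 0.01 and a range from -0.89 (Mdm2 and Ccng1) to 0.89 (Phlda3 and Bax). These correlations are a description over 8 libraries that share 4 groups and the differences in GC content given above. The genes whose log2 CPM followed Mdm2 most closely were Msantd3 (r = 0.99), Btn1a1 (0.99) and Pbp2 (0.99), and those closest to Trp53 were Znhit3 (0.97), Tomm20 (0.96) and Eif4e (0.95). These are the highest values among 15154 genes over 8 libraries. Btn1a1 was near the floor, with 0 CPM in both MEF libraries and at most 2.13 CPM elsewhere.

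Promoters of the members were searched for a p53 response element, since p53 binds a pair of 10-base sites. The search took at most 13 bases between the members of a pair, an intact core in each and at most 2 mismatches elsewhere. The core was C and G around a central pair of bases that were each A or T. Both strands were covered, from 250 bases before to 50 after each RefSeq start (GRCm38.p6, the assembly of mm10). Of 32851 such windows, 697 (2.12%) held a match. The table holds 11 windows of 8 members, not Zmat3 or Trp53inp1, and 2 windows of 2 members had a match. They are those of Bax and Sesn1, shown with the matched element in capitals. Both genes were called higher than MEF with carbidopa, but so was Mdm2, whose window held no match. A link between a match and these calls was not tested. The Bax window is chr7:45466849-45467148 on the minus strand, and the Sesn1 window, at the inner of its listed starts, is chr10:41887189-41887488 on the plus strand.
Bax: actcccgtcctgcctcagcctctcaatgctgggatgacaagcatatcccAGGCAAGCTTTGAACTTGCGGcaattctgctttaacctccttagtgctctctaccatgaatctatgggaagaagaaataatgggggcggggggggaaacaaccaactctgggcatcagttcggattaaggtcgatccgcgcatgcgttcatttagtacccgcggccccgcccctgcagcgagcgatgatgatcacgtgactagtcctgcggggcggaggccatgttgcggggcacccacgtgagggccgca
Sesn1: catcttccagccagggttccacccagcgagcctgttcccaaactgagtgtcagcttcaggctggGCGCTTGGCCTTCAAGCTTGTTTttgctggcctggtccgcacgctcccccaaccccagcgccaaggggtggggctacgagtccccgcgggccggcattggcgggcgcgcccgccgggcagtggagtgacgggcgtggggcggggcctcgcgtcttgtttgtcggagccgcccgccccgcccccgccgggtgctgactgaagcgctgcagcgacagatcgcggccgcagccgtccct
The Bax window held 2 matches, of which 1 is marked. The marked Bax element begins 201 bases before the start with 1 base between the sites, and that of Sesn1 begins 186 bases before it with 3 bases between them. Each has 2 mismatches. The windows of Trp53, Mdm2, Ccng1, Phlda3, Eda2r and Bbc3 held no match. A match is a description of the letters, binding was not measured, and elements in introns lie outside these windows.

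Of 49 other p53 target genes, all were tested. With carbidopa 22 passed as higher than MEF and 4 as lower, 44.9% and 8.16% of the list. With LY-364947 15 were higher and 5 lower (30.6% and 10.2%). CHIR-99021 gave 18 higher and 5 lower (36.7% and 10.2%). Over all genes, 18%, 13.7% and 18.7% were higher and 19.7%, 17.2% and 20.1% lower, shares that also stand beside each list below. The median log2 fold changes of the list were 0.35, 0.29 and 0.27, beside 0.04, 0.03 and 0.04 over all genes. The list was chosen with earlier results of these data known, so its shares and medians cannot test for an excess over all genes. With GC content corrected, 17, 15 and 16 genes were higher and 5, 6 and 5 lower. The count of calls, 26, 20 and 23 as reported, was as low as 12 after carbidopa (without MEF replicate 2), 8 after LY-364947 (without MEF replicate 1 or 2) and 13 after CHIR-99021 (without MEF replicate 2). It was as high as 30 (without carbidopa replicate 2), 31 and 36 (both without either carbidopa library), in fits that called 50.5%, 41% to 41.2% and 49.2% of all genes.

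**Figure D4:**
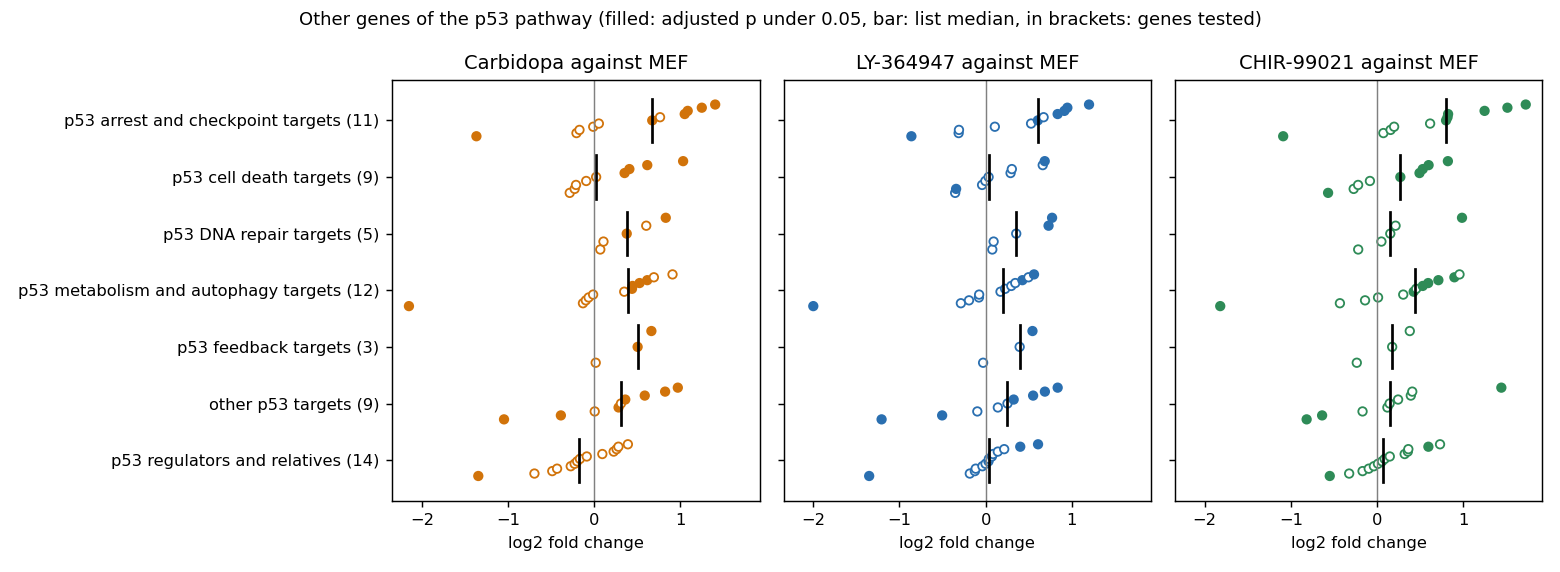
Log2 fold change against MEF (horizontal axis) of the other p53 target and regulator genes, 1 row a list and 1 panel a compound, where filled points passed an adjusted p under 0.05 and the black bar is the list median. The arrest and checkpoint targets have the highest list median in each panel (0.67 after carbidopa, 0.61 after LY-364947 and 0.80 after CHIR-99021), and Dram1 is the lowest point in each panel.

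Among arrest and checkpoint targets, 5, 5 and 6 of 11 were higher for carbidopa, LY-364947 and CHIR-99021, and 1 was lower in each. Plk2, a polo-like kinase, had 117 and 119 CPM without a compound, 243 and 247 after carbidopa, 215 and 231 after LY-364947 and 404 and 379 after CHIR-99021. Its log2 fold changes of 1.05, 0.92 and 1.73 (standard error 0.10, 0.09 and 0.10) had edgeR adjusted p = 1.37e-05, 3.92e-05 and 4.01e-07, and the calls held under every alternative run. Gadd45a, a growth arrest gene, rose by 1.25, 0.84 and 0.83, Gdf15, a secreted stress factor, by 1.41, 1.20 and 1.25, and Gtse1, whose product binds p53, by 0.67, 0.61 and 0.82. Gdf15 was low, with 15 and 14 reads in the MEF libraries and 36 to 65 in treated ones. Its call with LY-364947 was lost with DESeq2 (adjusted p = 0.0606). Without carbidopa replicate 1 the value of Gadd45a with carbidopa was 0.78. Calls of Gadd45a and Gdf15 with LY-364947 and CHIR-99021 were lost without MEF replicate 2 among others (0.0746 to 0.139), as was Gdf15 with carbidopa (0.0707), and that of Gdf15 with CHIR-99021 also under the GC correction (0.87, edgeR adjusted p = 0.0629). Rprm, an arrest gene, rose with carbidopa (1.09) and LY-364947 (0.95), and both calls were lost without MEF replicate 2 (0.0990 and 0.169), the latter also without MEF replicate 1 or either LY-364947 library (0.0626 to 0.130). Without carbidopa replicate 1 the value of Rprm with carbidopa was 0.54 (0.0468). With CHIR-99021 the value of Rprm was 0.62 and did not pass. It passed without a filter (edgeR adjusted p = 0.0107) and with only the compared groups in the fit (0.0132), and was 0.39 (0.250) under the GC correction. Ptprv, which encodes a phosphatase, fell by 1.37, 0.86 and 1.09 on the log2 scale.

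Cdkn1a, which encodes the cell cycle inhibitor p21 and is the best known p53 target, was not called against MEF. It had 732 and 766 CPM without a compound, 708 and 591 after carbidopa, 622 and 585 after LY-364947 and 847 and 874 after CHIR-99021. Its log2 values were -0.21, -0.31 and 0.20 (edgeR adjusted p = 0.161, 0.0521 and 0.173). The LY-364947 value passed with DESeq2 (0.0234), with RLE size factors (0.0385) and under the GC correction (0.0146). Under that correction the carbidopa value passed too (-0.33, 0.0242), while the CHIR-99021 value was 0.04 (edgeR adjusted p = 0.779). Without carbidopa replicate 1 all 3 values passed (-0.34, -0.31 and 0.20, edgeR adjusted p = 0.00604, 0.00208 and 0.0195), and without carbidopa replicate 2 the first was -0.08 (0.410). CHIR-99021 exceeded carbidopa by 0.41 (0.0327) and LY-364947 by 0.51 (0.0119). These differences between compounds were not recomputed under other settings or with a library left out.

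Cell death targets gave 4 higher and 0 lower of 9 after carbidopa, 1 and 1 after LY-364947, and 5 and 1 after CHIR-99021. Pidd1, which encodes a death domain protein, was higher in all 3 treatments (0.62, 0.69 and 0.60). Under the GC correction these values were 0.42, 0.59 and 0.31 and still passed (edgeR adjusted p = 0.0123, 0.00188 and 0.0454). Fas, a death receptor, fell by 0.57 with CHIR-99021 (edgeR adjusted p = 0.0119), a call not followed singly under other settings. DNA repair targets gave 2, 2 and 1 higher of 5, with Xpc, a sensor of DNA lesions, higher in each (0.83, 0.77 and 0.99). The call of Xpc with LY-364947 was lost without MEF replicate 1 or 2 or LY-364947 replicate 2 (0.0525 to 0.0809).

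Of 12 metabolism and autophagy targets, 4, 2 and 5 were higher and 1 lower in each. The lower gene was Dram1, a lysosomal membrane protein of autophagy, with 12.7 and 16.5 CPM without a compound, 3.62 and 2.94 after carbidopa, 4.27 and 3.04 after LY-364947 and 4.61 and 3.66 after CHIR-99021. It fell by 2.15, 2.00 and 1.82 on the log2 scale (edgeR adjusted p = 5.13e-05, 9.22e-05 and 1.55e-04), and the calls held under every alternative run. Cpt1c, a carnitine palmitoyltransferase, rose by 0.62, 0.56 and 0.71. Sesn2, which belongs to the family of Sesn1, rose by 0.45, 0.43 and 0.43, but under the GC correction it was 0.24 with carbidopa (0.0914) and 0.12 with CHIR-99021 (0.386), and it lost its calls without MEF replicate 1 (0.0524 to 0.0671). Feedback targets gave 2, 1 and 0 higher of 3, and other targets 5, 4 and 1 higher and 2 lower of 9. Epha2, a receptor tyrosine kinase, rose by 0.59, 0.55 and 1.45, although the calls with carbidopa and LY-364947 were lost without MEF replicate 2 (0.167 and 0.224), the first also without carbidopa replicate 1 (0.33, 0.0855) and the second without any MEF or LY-364947 library (0.0596 to 0.224). Ckap2, a spindle protein, rose with carbidopa (0.82) and LY-364947 (0.84). Steap3, a metalloreductase, fell by 1.05, 1.21 and 0.82 and Cd82, a tetraspanin, by 0.39, 0.50 and 0.64. Cd82 with carbidopa was not called by DESeq2 (0.0743), without a filter (0.103) or with only the compared groups in the fit (0.104), nor with any library other than carbidopa replicate 1 left out (0.0615 to 0.208), and with LY-364947 it was lost without MEF replicate 1 or 2 or LY-364947 replicate 1 (0.0753 to 0.147).

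Of 16 regulators and relatives of p53, 14 were tested, and Trp63 and Trp73 had too few counts. Carbidopa gave 0 higher and 1 lower (0% and 7.14%), LY-364947 gave 2 and 1 (14.3% and 7.14%), and CHIR-99021 gave 1 and 1 (7.14% each). Of all genes, 18% and 19.7%, 13.7% and 17.2%, and 18.7% and 20.1% were higher and lower, so these counts were near or below those shares. Summed, the list stood at 954 and 951 CPM in MEFs and at 740 and 988 CPM in carbidopa replicates 1 and 2. The gene that fell with carbidopa and LY-364947 was Ppp1r13l, which encodes the p53 inhibitor iASPP, by 1.35 in each on the log2 scale (edgeR adjusted p = 6.14e-05 and 6.78e-05). It had 22.5 and 20.2 CPM without a compound, 8.99 and 7.79 after carbidopa, 8.08 and 8.63 after LY-364947 and 22.5 and 19.2 after CHIR-99021, and its log2 value with CHIR-99021 was -0.04 (0.868), or -0.43 (0.0138) under the GC correction. CHIR-99021 exceeded carbidopa in Ppp1r13l by 1.31 (edgeR adjusted p = 3.47e-04) and LY-364947 by 1.32 (3.83e-04), values not recomputed under other settings or with a library left out. Mdm4, the relative of Mdm2 that inhibits p53, had 107 and 115 CPM without a compound, 101 and 159 after carbidopa, 180 and 159 after LY-364947 and 113 and 133 after CHIR-99021. Its log2 value of 0.61 with LY-364947 passed (edgeR adjusted p = 0.0304) but was lost without any 1 library of that pair or of the MEF pair (0.0698 to 0.172), while those of 0.23 and 0.15 with carbidopa and CHIR-99021 did not pass. The first of these was 0.52 (0.00392) without carbidopa replicate 1 and -0.14 (0.328) without carbidopa replicate 2. Cdkn2a, whose locus encodes the MDM2 inhibitor ARF, had 65.7 and 60.7 CPM in MEFs and 56.6 to 100.1 CPM in treated cells and was not called in any treatment (edgeR adjusted p = 0.125, 0.900 and 0.830), although the carbidopa value of 0.39 was 0.67 (0.00165) without carbidopa replicate 2 and 0.06 (0.792) without carbidopa replicate 1. The reads of Cdkn2a do not tell its overlapping products p16 and ARF apart.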

How the data were processed

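The 8 RNA-seq libraries, 2 per group, were grouped by sample title. STAR (v2.4.2a) and featureCounts were used by the authors to align reads (mm10) and assign them to genes, and the deposited values are raw counts per gene. The annotation release and strand setting were not given in the sources used here. The methods name a NEBNext Ultra kit and the labels a SMARTER kit. One other symbol was matched by Ensembl identifier (Cop1, listed as Rfwd2).

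Counts were analysed in R 4.3.3 with edgeR 4.0.16 (TMM, filterByExpr, quasi-likelihood test, group as the only term). The 6 comparisons were adjusted over all 15154 genes tested. Standard errors were derived from the F statistic. Counting intervals and limits cover counting error only, since reads carry no molecular identifiers. DESeq2 1.42.0 was an alternative, with the others named in the closing section. In each fit without 1 library, the lone library of its group was assumed to vary like the other groups. The scripts were tested on simulated data. Exon lengths, GC content and positions came from GENCODE M21 (GRCm38), with a GC value for 15126 of the genes tested and all 10 members. The annotation lists Gm45808 over Bax on the same strand, which had 0 reads here.

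The members and gene lists were chosen with earlier results of these data known. Named from the other lists were genes called in the same direction in all 3 treatments, the 3 largest changes of each sign per treatment with a higher group mean of 100 or more normalized counts, and Cdkn1a, Mdm4 and Cdkn2a. Fas was chosen after its values were seen, as were Mki67, Top2a, Serpina1a, Tat, Alb and Apoa2. Of the marker lists, 3 of 6 epithelial genes were tested and 1, 1 and 3 were higher with carbidopa, LY-364947 and CHIR-99021. Of 5 endothelial genes 3 were tested and 1, 1 and 2 were lower. Of 7 ATF4 stress targets 1 was higher in each and 2, 3 and 5 were lower. Of 8 fibroblast markers 6 were lower and 1 higher in each treatment. Beside these counts, 18%, 13.7% and 18.7% of all genes were higher and 19.7%, 17.2% and 20.1% lower.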

Additional observations from a re-analysis of the deposited data

How the results depend on the processing

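Outside of libraries left out, the 60 fold changes of the members were each recomputed 7 ways, 420 values in all: with DESeq2, with RLE size factors, unfiltered, with genes under 10 counts in any library removed, with only the compared groups fitted, with a replicate block, and with the GC correction chosen after seeing the data. Of these, 395 stayed on the same side of the threshold with the same direction, 22 passed where the reported value had not, 3 no longer passed, and 0 called values changed sign. Of the 399 values of the 19 other named genes, 379 stayed, 11 were gained and 9 lost.

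Members called were 6 with carbidopa without a filter on low counts (3 reported) and 6 with LY-364947 in the fit of the compared groups alone (3 reported). In that fit CHIR-99021 differed from carbidopa in 1 member (2 reported) and from LY-364947 in 7 (3 reported). The latter count was 5 without a filter. The other p53 targets called in the fit of the compared groups were 17 after carbidopa, 32 after LY-364947 and 36 after CHIR-99021 (26, 20 and 23 reported). Of all genes, 23.9% were called with carbidopa without a filter (37.7% reported) and 10.7% between CHIR-99021 and LY-364947 (14.1% reported). In the fits of the compared groups 28.7%, 47.3% and 52.7% were called with the compounds in the order given (37.7%, 31% and 38.8% reported), and 7.13% and 25.4% between CHIR-99021 and the other compounds (14.7% and 14.1% reported). The cause of these shifts was not tested. With each library left out in turn, the members called ran from 1 to 6 after carbidopa and after LY-364947, 1 to 4 after CHIR-99021, 0 to 4 between CHIR-99021 and carbidopa, 0 to 7 between CHIR-99021 and LY-364947 and 0 to 4 between LY-364947 and carbidopa. The other targets called ran from 12 to 30 (carbidopa), 8 to 31 (LY-364947) and 13 to 36 (CHIR-99021). These fits hold fewer libraries.

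Replicate numbers are shared between groups. The deviations of same-numbered libraries had correlations of -0.16 to 0.13 over the pairs of groups. Whether the numbers pair the libraries cannot be told from this, since each group gives a single difference. With the replicate block, 3 members were called after carbidopa, 3 after LY-364947 and 4 after CHIR-99021, and 23, 20 and 23 other targets, and the call of Phlda3 with CHIR-99021 was gained (edgeR adjusted p = 0.0382) and that of Cd82 with carbidopa was lost (0.0627). With 2 libraries per group the spread of a group rests on a single difference.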
